A study of Homo sapiens with 6 samples.

Results

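The ATF4 amino acid stress response was followed as a module of 38 genes among the 58735 genes of the table. The members were chosen by symbol for their known roles, with earlier results of these data known: the transcription factor ATF4 with its partners, its established targets, the amino acid transporters it controls, and cytosolic tRNA synthetases. All 38 symbols were found in the table. The cells were AsPC-1, an established human pancreatic cancer cell line. The Vector group (n = 3) had the genotype label WT and received an empty virus. The OE-MMP28 group (n = 3) had the genotype label MMP28 overexpression and received a lentivirus for MMP28, a secreted matrix metalloproteinase. According to the methods, the overexpression construct carried GFP, a puromycin resistance gene and MMP28 cDNA, infected cells were selected with puromycin, and no single clone is mentioned. No source names the promoter that drives the cDNA, and no source states whether the 3 libraries of a group came from separate cultures, so every p-value measures the spread between these libraries, which may be technical. RNA came from whole cultures, in which fewer cells expressing a gene and less RNA per cell cannot be told apart.

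ATF4 is the effector of the integrated stress response. When amino acids run short or unfolded proteins accumulate, kinases phosphorylate the initiation factor eIF2 on its alpha subunit, general translation slows, and the ATF4 mRNA, whose upstream reading frames normally hold back its translation, is translated more. ATF4 then pairs with C/EBP factors at composite C/EBP-ATF elements and raises genes that import amino acids, make them and charge tRNAs with them. Through CHOP (DDIT3), TRIB3 and GADD34 (PPP1R15A) it also restrains the response. Much of the control of ATF4 itself lies in translation, which RNA levels do not measure.

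The composite element was looked for in the promoters of the members, because it is the sequence by which ATF4 recognises its targets. The promoter sequences (250 bases before to 50 bases after each start) came from RefSeq on GRCh38.p14, and 35 of the 38 members matched by symbol, with 54 listed starts. NUPR1, EIF4EBP1 and PYCR1 had no entry. The letters TGATGNAA, read on both strands, occurred at 14 of the 54 member starts (25.9%), compared with 3.62% of all 35116 promoters. Counted by gene, 14 of 35 members (40%) had a match at any of their starts, compared with 4.46% of 27305 genes and 2.78% of the genes tested here. The members were chosen for known roles in the ATF4 response, so these shares describe them and test nothing. The stricter form TGATGCAA, a subset of those letters, was found in 10 members (28.6%) and in 1.08% of genes. The cyclic AMP element TGACGTCA was found in 1 member, PPP1R15A, in 2.25% of genes and in 3.64% of the genes tested here.

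The sequences below were chosen because CHAC1 was the member that differed most between the groups, and because the others show the same element in members of every large class. Capitals mark the match, and each sequence is written 5′ to 3′ in the direction of its gene, so that TTGCATCA is the same element on the opposite strand. The 250 bases before the start of CHAC1 (chr15:40953221-40953470, plus strand) were:
CHAC1: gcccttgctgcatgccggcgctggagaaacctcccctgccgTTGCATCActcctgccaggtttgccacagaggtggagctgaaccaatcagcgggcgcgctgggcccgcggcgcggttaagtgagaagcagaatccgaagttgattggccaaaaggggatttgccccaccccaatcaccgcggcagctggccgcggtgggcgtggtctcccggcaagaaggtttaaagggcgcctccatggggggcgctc
The 24-base windows of the other members were:
ASNS (chr7:97872461-97872484, minus strand): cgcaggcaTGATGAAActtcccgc
CEBPG (chr19:33374063-33374086, plus strand): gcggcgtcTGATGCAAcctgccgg
JDP2 (chr14:75427998-75428021, plus strand): gccggggcTGATGCAAcccgtccc
SLC1A4 (chr2:64989384-64989407, plus strand): gctcccgtTTGCATCAtctccagc
SLC1A5 (chr19:46784896-46784919, minus strand): gaagtggcTGATGCAAgctgtcca
AARS (chr16:70289678-70289701, minus strand): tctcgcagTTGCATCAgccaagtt
NARS (chr18:57621807-57621830, minus strand): acgctctcTGATGCAAcgccggaa
MARS (chr12:57488056-57488079, plus strand): ggttccggTTGCATCAgcgaggga
IARS (chr9:92293695-92293718, minus strand): tcagcgcgTTGCATCAcctccgtg
The match began 209 bases before the start in CHAC1 and 4 bases before it in MARS, and the ASNS window held the form TGATGAAA. These are matches of letters, with no measure of binding. The 14 members with a match were ASNS, CHAC1, CEBPG, SLC3A2, SLC7A1, SLC1A5, SLC1A4, AARS, GARS, NARS, MARS, IARS, JDP2 and FGF21.

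Total counts per library ranged from 13633249 to 16691458, and 3 counts, the most that a count of 0 allows, corresponded to between 0.180 and 0.220 CPM, counts scaled to the library total. This limit covers counting error only. The overexpressed gene MMP28 was at 5.17, 9.11 and 8.43 FPKM in the Vector libraries and 13.1, 13.9 and 15.1 FPKM in the OE-MMP28 libraries, and its log2 fold change was 0.90 (SE 0.19, adjusted p = 0.00226, edgeR). An exact two-sided permutation test of its FPKM gave p = 0.1, the smallest that 3 against 3 libraries can give. Mitochondrial genes took between 11.9% and 14.8% of the counts in Vector and between 8.80% and 11.9% in OE-MMP28. Epithelial markers summed to between 2579 and 4305 FPKM over the libraries. Fibroblast markers summed to between 33.9 and 57.0 FPKM in all, and to at most 0.166 FPKM without LUM. Leukocyte markers summed to between 105.7 and 186 FPKM, and to at most 1.09 FPKM without LYZ. Endothelial markers reached 0.336 FPKM, and CD3E, KDR and ERG were at 0 in every library.

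Of the 38 members, 34 passed the filter on low counts and were tested with edgeR, and 6 of these were called at an adjusted p under 0.05. PCK2 and WARS rose in OE-MMP28, so that 2 of 34 members (5.88%) were higher, against 11.7% of the 15319 genes tested. CHAC1, DDIT4, KLHL24 and TRIB3 fell, so that 4 of 34 members (11.8%) were lower, against 11.6% of all genes. Together 17.6% of the members were called, and 23.4% of all genes were. The share of the module called was not above that of the whole table. The median log2 fold change of the members was 0.06, beside 0.01 over all genes, and 18 members had a positive and 16 a negative value. CHAC1 and DDIT4 also had an absolute log2 fold change over 1, which 7.38% of all genes reached with an adjusted p under 0.05 and 8.5% with an unadjusted p under 0.05. All 4 members that fell belonged to the 7 feedback and stress regulators of the module. With the mitochondrial genes left out of the counts, 2 members were higher and 5 lower, ALDH18A1 being the fifth. Of the 6 members called, CHAC1 was among the 14 with a match to TGATGNAA, and the other 5 were not.

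**Figure D1:**
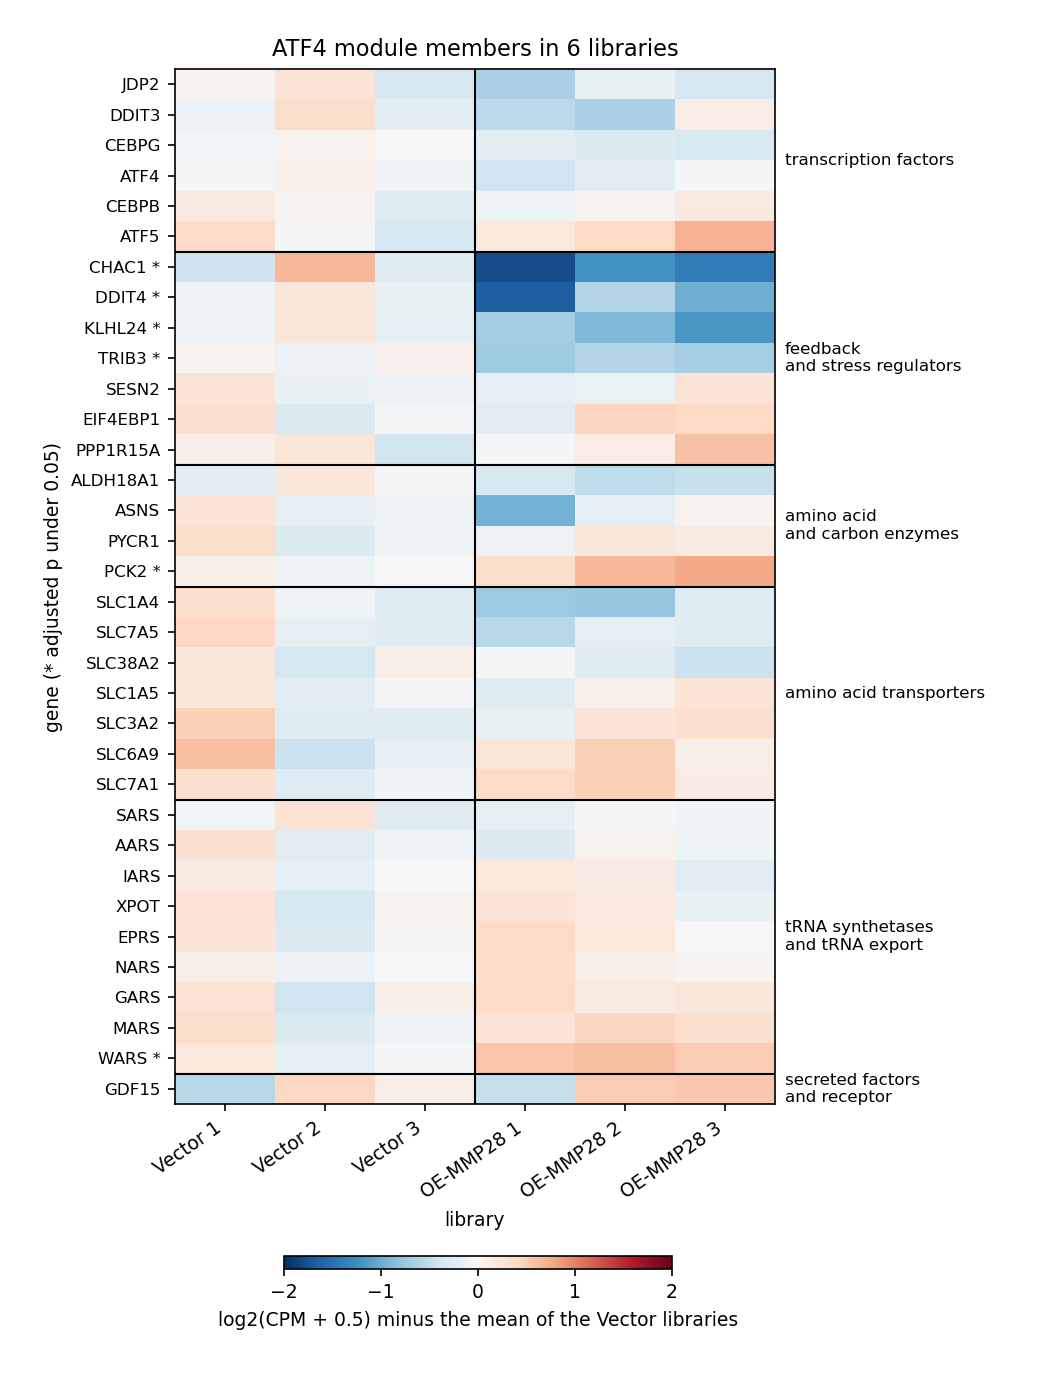
Log2(CPM + 0.5), here with TMM scaling, of the 34 members tested, each minus the mean of the Vector libraries, by gene (rows, grouped by role) and library (columns); stars mark an adjusted p under 0.05. CHAC1, DDIT4, KLHL24 and TRIB3 were below the Vector mean in all 3 OE-MMP28 libraries, and PCK2 and WARS were above it.

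The feedback and stress regulators were the class with the most calls, 4 of 7 (57.1%), beside 23.4% of all genes. The classes were drawn up with earlier results of these data known, so this share is no test of the class. In the fit that takes off the median of the chromosomal neighbours, given below, 3 of the 7 were called lower, beside 8.04% of all genes. CHAC1 (chr15:40952962-40956519, plus strand, ENSG00000128965) encodes an enzyme that degrades glutathione and is one of the genes most strongly induced through ATF4. It was at 1.84, 4.21 and 2.11 FPKM in the Vector libraries and 0.584, 0.950 and 0.809 FPKM in the OE-MMP28 libraries. The highest OE-MMP28 library was below the lowest Vector library, and Vector 2 stood well above the other Vector libraries. The means were 2.72 ± 1.29 FPKM in Vector and 0.781 ± 0.185 FPKM in OE-MMP28 (mean ± SD, n = 3 each). The fitted level was 3.43-fold lower in OE-MMP28, with a log2 fold change of -1.78 (SE 0.35, 95% interval -2.50 to -1.06, adjusted p = 0.00104), and it was called lower under each of 18 alternative settings. The counts behind it were low, between 19 and 117 per library.

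TRIB3 (chr20:362835-397559, plus strand, ENSG00000101255) encodes a pseudokinase that binds AKT and ATF4 and dampens the response that induces it. Its level was 9.28, 8.38 and 9.62 FPKM in the Vector libraries and 5.56, 5.93 and 5.63 FPKM in the OE-MMP28 libraries. Both groups were tight and did not overlap, with 9.09 ± 0.640 FPKM in Vector and 5.71 ± 0.199 FPKM in OE-MMP28 (mean ± SD, n = 3 each). The log2 fold change was -0.66 (SE 0.16, adjusted p = 0.00606), and TRIB3 too was called lower under each of the 18 settings.

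DDIT4 (chr10:72273920-72276036, plus strand, ENSG00000168209), also named REDD1, encodes an inhibitor of mTORC1 induced by energy stress, hypoxia and ATF4. It was measured at 6.55, 8.23 and 6.30 FPKM in the Vector libraries and 2.09, 4.54 and 3.41 FPKM in the OE-MMP28 libraries. All 3 OE-MMP28 libraries were below the 3 Vector libraries, and OE-MMP28 1 was the lowest of them. The log2 fold change was -1.05 (SE 0.24, adjusted p = 0.00408), a 2.08-fold lower level. DDIT4-AS1, on the opposite strand, covers 41.2% of the exon length of DDIT4 and had 0 counts in total. Since the kit does not mark strand, reads of that part cannot be assigned to either gene. The median log2 fold change of the 89 genes tested within 5 Mb of DDIT4 on chromosome 10 was -0.44, and with this median taken off in the fit DDIT4 had -0.62 (adjusted p = 0.0944), which did not pass the threshold.

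KLHL24 (chr3:183635568-183684477, plus strand, ENSG00000114796) encodes an adaptor of a CUL3 ubiquitin ligase. Its values were 3.27, 4.11 and 3.04 FPKM in the Vector libraries and 2.13, 1.80 and 1.50 FPKM in the OE-MMP28 libraries. The groups did not overlap, and the level was 1.91-fold lower in OE-MMP28, with a log2 fold change of -0.93 (SE 0.18, adjusted p = 0.0012). The genes around KLHL24 were shifted the other way, with a median of 0.50 over 66 genes. Relative to them its log2 fold change was -1.43 (adjusted p = 2.37e-05).

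The other 3 regulators did not pass the test. PPP1R15A, which directs the phosphatase that restores eIF2, had a log2 fold change of 0.24 (95% interval -0.13 to 0.62, adjusted p = 0.355) and ranged from 24.4 FPKM in Vector 3 to 46.6 FPKM in OE-MMP28 3. SESN2, a leucine sensor upstream of mTORC1, was at 2.13 ± 0.354 FPKM in Vector and 2.10 ± 0.388 FPKM in OE-MMP28 (mean ± SD, n = 3 each), a log2 fold change of -0.01. EIF4EBP1, a repressor of cap-dependent translation, had 0.23 on the same scale. With the median of its neighbours on chromosome 8 taken off, EIF4EBP1 had 0.55 (adjusted p = 0.056). In 6 of these 7 regulators the lowest OE-MMP28 library was OE-MMP28 1, which was the lowest in 58.8% of the members tested and in 39.1% of all genes.

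**Figure D2:**
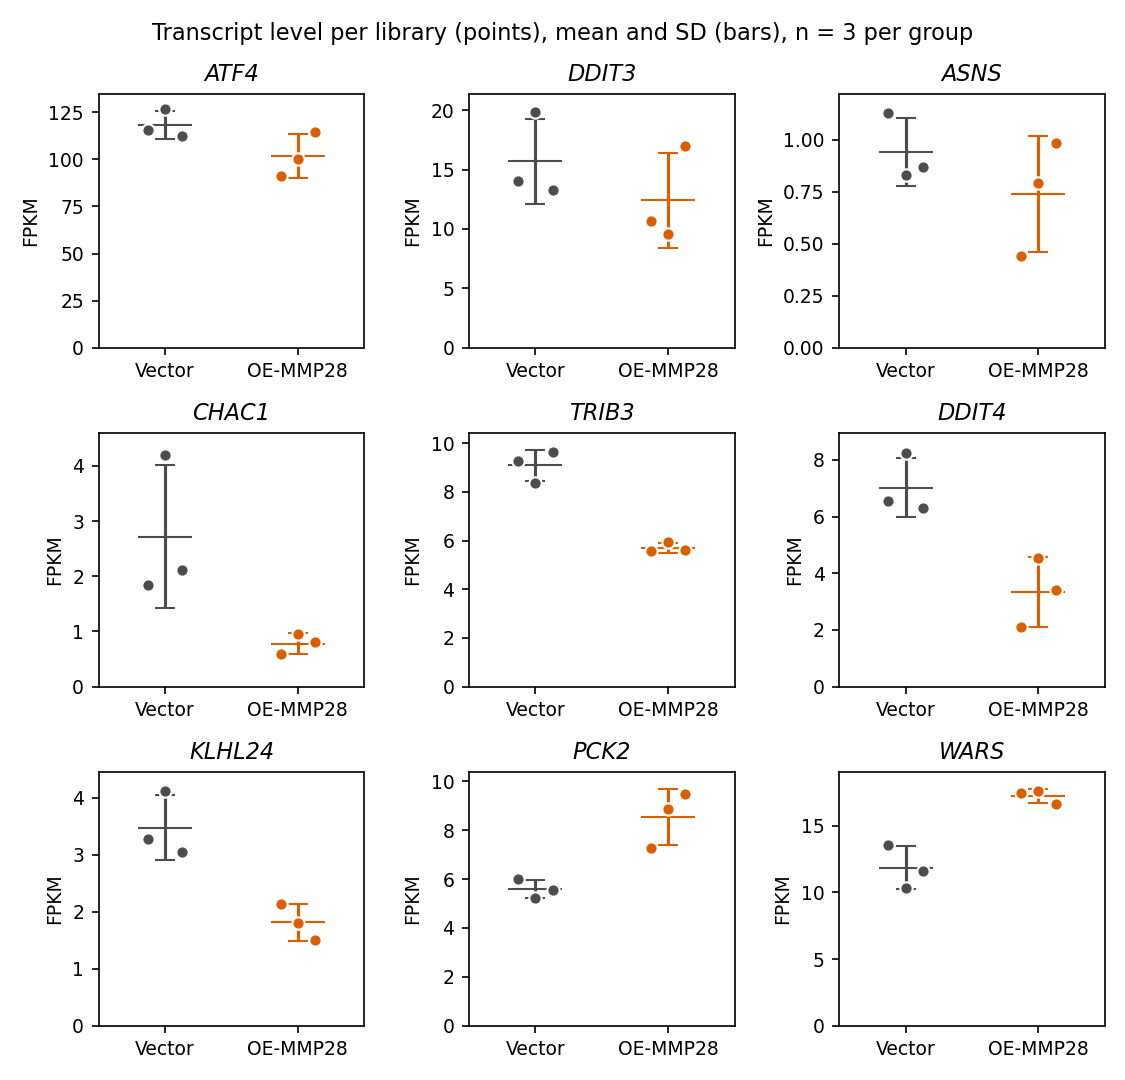
FPKM of 9 members in each library (points) with the mean (horizontal line) and SD (bars) of the 3 Vector and the 3 OE-MMP28 libraries. The groups overlapped for ATF4, DDIT3 and ASNS and did not overlap for CHAC1, TRIB3, DDIT4, KLHL24, PCK2 and WARS.

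The 6 transcription factors tested gave 0 calls in edgeR, in DESeq2 and in limma voom, and 1 of them, ATF5, had an unadjusted p under 0.05 in edgeR. Over all genes edgeR called 23.4%, and 35.8% had an unadjusted p under 0.05. ATF4 (chr22:39519695-39522685, plus strand, ENSG00000128272) was among the most abundant members, at 115, 127 and 113 FPKM in the Vector libraries and 91.0, 100.2 and 114 FPKM in the OE-MMP28 libraries. OE-MMP28 3 lay among the Vector libraries, so the groups overlapped. The means were 118 ± 7.50 FPKM in Vector and 102 ± 11.7 FPKM in OE-MMP28 (mean ± SD, n = 3 each), and the log2 fold change was -0.20 (SE 0.15, 95% interval -0.51 to 0.10, adjusted p = 0.338). DDIT3, which encodes the factor CHOP of prolonged stress, was at 14.0, 19.8 and 13.2 FPKM in the Vector libraries and 10.7, 9.56 and 17.0 FPKM in the OE-MMP28 libraries. OE-MMP28 3 was again within the range of the Vector libraries, and the log2 fold change was -0.32 (adjusted p = 0.312). Without OE-MMP28 3 it was -0.62 (adjusted p = 0.0615). Over the 6 fits that each left out 1 library, DDIT3 ran from -0.62 to -0.12, with an adjusted p of up to 0.756. The exons of DDIT3 overlap those of MARS on the opposite strand over 27.2% of their length, and since the kit does not mark strand, reads of the overlap cannot be assigned to either gene. The same holds for 21.2% of the exon length of ATF5, which NUP62 covers.

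CEBPG, the C/EBP partner of ATF4, was at 17.9, 19.7 and 18.8 FPKM in the Vector libraries and 16.3, 15.3 and 15.1 FPKM in the OE-MMP28 libraries. The groups did not overlap, yet the difference was small, with a log2 fold change of -0.26 (95% interval -0.57 to 0.04, adjusted p = 0.197). CEBPB, the other C/EBP member, had 21.0 ± 3.05 FPKM in Vector and 21.7 ± 1.79 FPKM in OE-MMP28 (mean ± SD, n = 3 each), a log2 fold change of 0.06. ATF5, a relative of ATF4 that is likewise controlled in translation, had 0.44 (adjusted p = 0.104) and its highest level, 14.1 FPKM, in OE-MMP28 3. Without Vector 1, the highest Vector library at 11.3 FPKM, the value of ATF5 was 0.65 (adjusted p = 0.0168). Over all fits that left out 1 library it ran from 0.28 to 0.65, with an adjusted p of up to 0.421. JDP2, a repressor that binds AP-1 and CRE sites, was at 1.05, 1.22 and 0.773 FPKM in the Vector libraries and 0.619, 0.880 and 0.772 FPKM in the OE-MMP28 libraries, with a log2 fold change of -0.41 (adjusted p = 0.262). NUPR1, a stress-induced chromatin protein, had 3, 12 and 3 counts in the Vector libraries and 1, 0 and 3 counts in the OE-MMP28 libraries and was not tested.

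Among the enzymes, PCK2 rose and the other 3 did not pass the test. PCK2 (chr14:24094053-24110598, plus strand, ENSG00000100889) encodes the mitochondrial phosphoenolpyruvate carboxykinase. It was at 6.00, 5.23 and 5.56 FPKM in the Vector libraries and 7.26, 8.85 and 9.49 FPKM in the OE-MMP28 libraries. Each OE-MMP28 library was above each Vector library, and the level was 1.54-fold higher, with a log2 fold change of 0.62 (SE 0.17, adjusted p = 0.0109). The adjusted p was 0.0668 without OE-MMP28 2 and 0.0509 without OE-MMP28 3. ASNS, the asparagine synthetase gene and a classic target of the amino acid response, was expressed at a low level, 1.13, 0.830 and 0.868 FPKM in the Vector libraries and 0.440, 0.793 and 0.987 FPKM in the OE-MMP28 libraries. OE-MMP28 1 was the lowest of the 6 libraries, while OE-MMP28 3 was above Vector 2 and Vector 3. The log2 fold change of ASNS was -0.33 (SE 0.31, 95% interval -0.97 to 0.31, adjusted p = 0.47). A gene on the same strand, AC079781.5, covers 44.6% of the exon length of ASNS, and it had 61, 108 and 71 counts in Vector and 41, 38 and 44 counts in OE-MMP28 (log2 fold change -1.12, adjusted p = 0.00931), so the count of ASNS is uncertain.

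ALDH18A1 and PYCR1 encode enzymes of proline synthesis. ALDH18A1 was at 32.8, 45.3 and 38.1 FPKM in the Vector libraries and 31.3, 26.5 and 28.0 FPKM in the OE-MMP28 libraries. The groups did not overlap, and the log2 fold change of -0.43 just missed the threshold (adjusted p = 0.0503). Of the 18 settings, 8 called it lower, among them those without Vector 1 (adjusted p = 0.0212) and without OE-MMP28 1 (adjusted p = 0.0426). Relative to its 76 neighbours on chromosome 10, whose median was -0.46, ALDH18A1 had 0.03 (adjusted p = 0.912). PYCR1 was at 12.6 ± 2.82 FPKM in Vector and 13.4 ± 1.45 FPKM in OE-MMP28 (mean ± SD, n = 3 each), with a log2 fold change of 0.10 (adjusted p = 0.742).

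The 7 amino acid transporters of the module gave 0 calls in edgeR, in DESeq2 and in limma voom, and 0 of them had an unadjusted p under 0.05 in edgeR. The shares over all genes in edgeR were 23.4% called and 35.8% with an unadjusted p under 0.05. SLC7A5 encodes LAT1, the importer of leucine and other large neutral amino acids, and SLC3A2 encodes its heavy chain 4F2hc. SLC7A5 was at 44.2, 29.7 and 28.2 FPKM in the Vector libraries and 22.9, 28.7 and 27.6 FPKM in the OE-MMP28 libraries. Its highest level was in Vector 1 and its lowest in OE-MMP28 1, and the other 4 libraries lay between 27.6 and 29.7 FPKM. The log2 fold change was -0.35 (95% interval -0.71 to 0.01, adjusted p = 0.149), and -0.12 without Vector 1. SLC3A2 was at 39.6, 24.4 and 24.3 FPKM in the Vector libraries and 26.1, 33.9 and 36.0 FPKM in the OE-MMP28 libraries, with a log2 fold change of 0.13 (adjusted p = 0.651).

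SLC38A2, the SNAT2 importer of small neutral amino acids that is induced by amino acid withdrawal, was the most abundant transporter of the module, between 79.0 and 125 FPKM. Its log2 fold change was -0.24 (95% interval -0.58 to 0.10). SLC1A5, the glutamine exchanger ASCT2, was at 40.2 ± 5.68 FPKM in Vector and 41.5 ± 6.80 FPKM in OE-MMP28 (mean ± SD, n = 3 each), with a value of 0.06. SLC7A1, the arginine importer CAT1, had 0.33 (95% interval -0.01 to 0.68). The neutral amino acid transporter SLC1A4 and the glycine transporter SLC6A9 were scarce, at most 0.547 and 0.532 FPKM, and their intervals were wide: -1.38 to 0.00 around -0.69 for SLC1A4 and -0.50 to 1.05 around 0.27 for SLC6A9. Among the Vector libraries, each of the 7 transporters had its highest level in Vector 1, as did 39.1% of all genes tested.

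The tRNA synthetases charge tRNAs with their amino acids, and XPOT exports tRNAs from the nucleus. Of these 9 members, WARS rose and the other 8 did not pass the test. WARS (chr14:100333788-100376805, minus strand, ENSG00000140105), the tryptophanyl-tRNA synthetase, was at 13.6, 10.3 and 11.6 FPKM in the Vector libraries and 17.5, 17.6 and 16.7 FPKM in the OE-MMP28 libraries. The OE-MMP28 libraries were close to each other and above every Vector library. The means were 11.8 ± 1.62 FPKM in Vector and 17.3 ± 0.521 FPKM in OE-MMP28 (mean ± SD, n = 3 each), and the log2 fold change was 0.55 (SE 0.15, adjusted p = 0.0112). The adjusted p was 0.0596 without Vector 3 and 0.0681 without OE-MMP28 2. MARS had the next highest value of the class, 0.33 (95% interval -0.01 to 0.67, adjusted p = 0.156), followed by GARS with 0.25, NARS and EPRS with 0.20 each, XPOT with 0.11, IARS with 0.06, and AARS and SARS with -0.10 each. SARS is serine's enzyme, AARS alanine's, IARS isoleucine's, NARS asparagine's, GARS glycine's, MARS methionine's, and EPRS joins the enzymes of glutamate and proline in a single chain. These 8 members were at intermediate levels per length, from 11.3 FPKM for MARS in Vector 2 to 65.5 FPKM for EPRS in OE-MMP28 1.

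The secreted factors and the receptor were mostly at the limit of detection. GDF15, a stress hormone that acts on the brainstem to reduce appetite, was at 0.909, 2.02 and 1.63 FPKM in the Vector libraries and 1.000, 2.15 and 2.19 FPKM in the OE-MMP28 libraries. Vector 1 and OE-MMP28 1 were the lowest of their groups, and the log2 fold change was 0.25 (95% interval -0.47 to 0.97, adjusted p = 0.643). FGF21, a hormone of the liver stress response, had 0 counts throughout, a limit of 3 counts per library. STC2, a secreted glycoprotein, had 2, 2 and 1 counts in the Vector libraries and 0, 0 and 4 counts in the OE-MMP28 libraries. VLDLR, a lipoprotein receptor, had 3, 4 and 4 counts in the Vector libraries and 11, 4 and 1 counts in the OE-MMP28 libraries. NUPR1, FGF21, STC2 and VLDLR were the 4 members left out by the filter. Of the pseudogenes of members, which may share reads with them, SLC7A5P1 had at most 29, XPOTP1 at most 17 and ATF4P3 at most 7 counts in a library.

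Without a test, 2 members had every OE-MMP28 library above every Vector library, PCK2 and WARS, against 18.7% of all genes tested. The reverse order was seen in 6 members, CHAC1, DDIT4, KLHL24, TRIB3, CEBPG and ALDH18A1, against 19.1% of all genes. At an unadjusted p under 0.05 there were 8 members, beside 35.8% of all genes. The members in these counts that were not called were CEBPG and ALDH18A1 for the order of the libraries, and ATF5 and ALDH18A1 for the unadjusted p.

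The spread within the Vector group differed between the classes. Of the 3 Vector libraries, Vector 1 was the highest in 22 of 34 members (64.7%) and in 39.1% of all genes tested. It was the highest in each of the 7 transporters and in 8 of the 9 synthetases and XPOT, where SARS was the exception. Vector 2 was the lowest Vector library in the same number, 8 of 9, and in 40.0% of all genes tested. The transcription factors ran otherwise, with the highest Vector level in Vector 2 for 4 of 6 and the lowest in Vector 3 for 5 of 6. Over all genes tested these shares were 34.4% and 26.7%. The median log2 deviation of the 34 members from their own group mean was 0.19 in Vector 1 and -0.15 in Vector 2. For the OE-MMP28 libraries it ran from -0.15 in OE-MMP28 1 to 0.04 in OE-MMP28 2. The deviations of Vector 1, Vector 2 and OE-MMP28 1 were larger in size than the median difference between the groups, 0.06. Without Vector 1, 5 members were called higher, with ATF5, SLC7A1 (0.52, adjusted p = 0.0298) and MARS (0.52, adjusted p = 0.0283) added to PCK2 and WARS. Without Vector 3 it was 1 member and without OE-MMP28 3 also 1. Without OE-MMP28 2, 0 members were called higher by edgeR, and 2, PCK2 and WARS, were higher at an unadjusted p under 0.05. The calls over all genes moved too, to 985 higher and 1044 lower without OE-MMP28 2, and to 1136 higher without Vector 3.

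Where the members lie on the chromosomes was compared with their fold changes, because whole chromosomes differed between the groups. On chromosome 14, which holds PCK2, WARS and JDP2, 249 of 492 genes tested were called higher and 11 lower, and the median log2 fold change was 0.56. On chromosome 10, which holds DDIT4 and ALDH18A1, 246 of 610 genes were called lower and 17 higher, with a median of -0.47. Chromosome 2, with SLC1A4, had a median of -0.41, and chromosome 8, with EIF4EBP1, -0.34. Chromosome 3, with KLHL24, had a median of 0.22. Chromosome 15, with CHAC1, chromosome 20, with TRIB3, and chromosome 22, with ATF4, had medians of 0.02, -0.02 and 0.03. Of the 34 members tested, 10 had neighbours within 5 Mb whose median was over 0.3 in size, and 24 did not.

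The neighbours of PCK2 had a median log2 fold change of 0.58 (96 genes) and those of WARS 0.53 (80 genes), about the value of each gene. In a fit that took off the local median as an offset, PCK2 had 0.04 (adjusted p = 0.913) and WARS 0.03 (adjusted p = 0.927), so that 0 members were called higher by edgeR, against 7.42% of all genes in that fit. At an unadjusted p under 0.05, 2 members were higher in it, ATF5 and EIF4EBP1. CHAC1 (-1.72, adjusted p = 0.00198), TRIB3 (-0.69, adjusted p = 0.00661) and KLHL24 were again called lower. JDP2 was called as well, at -1.05 (adjusted p = 0.00819), on low counts of 61 to 103 per library. Its neighbours on chromosome 14 had a median of 0.64. These 4 of 34 members stood beside 8.04% of all genes called lower in that fit.

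**Figure D3:**
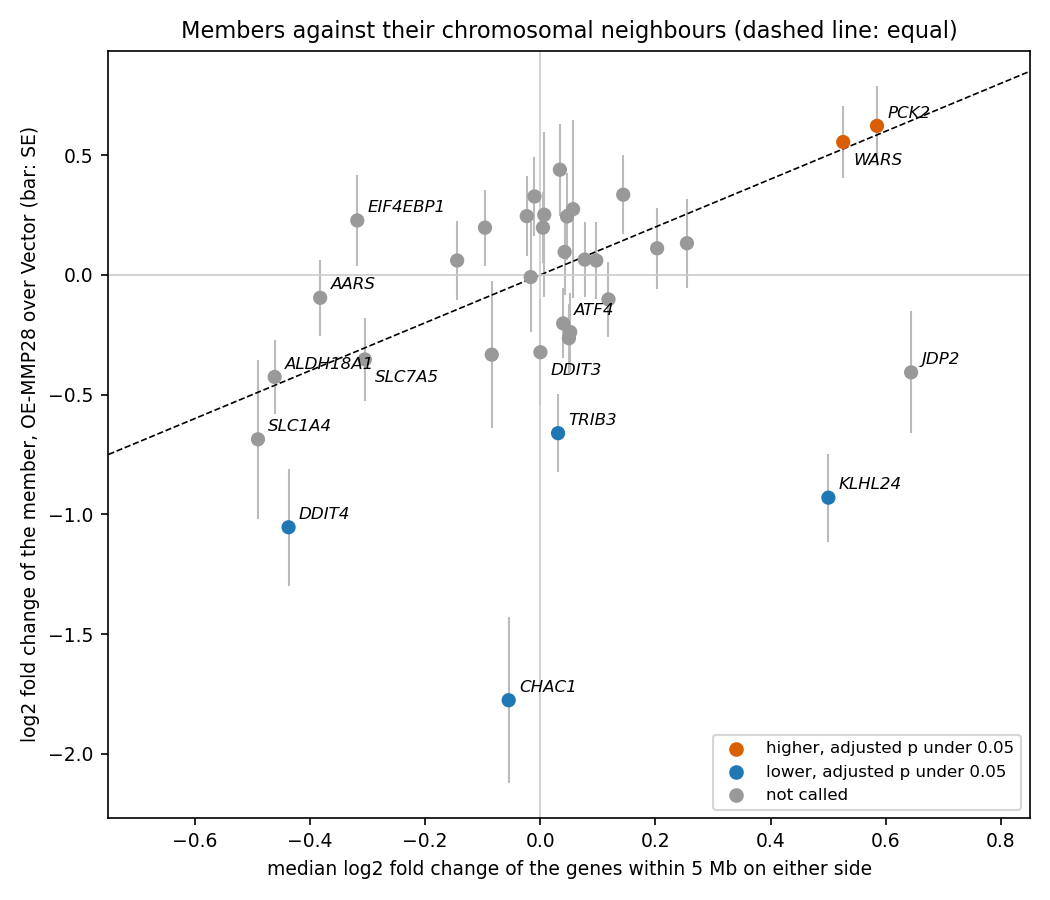
Log2 fold change of each of the 34 members (vertical axis, bars: SE) against the median log2 fold change of the genes tested within 5 Mb on either side (horizontal axis); the dashed line marks equal values. PCK2 (0.62) and WARS (0.55) lay on the line. CHAC1, TRIB3, KLHL24 and JDP2, called lower with the local offset, lay below it, as did other members, DDIT4 among them.

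The rest of the pathway was read from 8 lists, chosen, like the members, with earlier results of these data known. Their shares therefore describe the lists and test nothing. The lists held 166 genes in all, of which 151 were tested. Of these, 23 rose and 16 fell, 15.2% and 10.6% of those tested, beside 11.7% and 11.6% of all genes. These counts include SLC7A8, SLC7A2 and SLC38A5, which passed the filter on low counts through a single group. Without OE-MMP28 2 the number that fell was 8, and without OE-MMP28 3 it was 10. Upstream of ATF4, the 4 eIF2alpha kinases did not pass the test. EIF2AK3 (PERK), the sensor in the endoplasmic reticulum, was at 2.25, 2.12 and 2.46 FPKM in the Vector libraries and 1.49, 1.86 and 1.21 FPKM in the OE-MMP28 libraries, with a log2 fold change of -0.57 that just missed the threshold (adjusted p = 0.052). Of the 18 settings, 8 called EIF2AK3 lower, among them that without OE-MMP28 2 (adjusted p = 0.0475). Its neighbours had a median of -0.40, and relative to them EIF2AK3 had -0.17 (adjusted p = 0.633). EIF2AK4 (GCN2), which senses uncharged tRNA, had -0.11 (95% interval -0.43 to 0.21), EIF2AK1 (HRI), the heme-regulated kinase, -0.20, and EIF2AK2 (PKR), which binds double-stranded RNA, -0.32 (adjusted p = 0.151).

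Of the 19 genes for these kinases, eIF2, its exchange factor eIF2B and their regulators, 7 rose (36.8%) and 1 fell (5.26%), beside 11.7% and 11.6% of all genes, and the median log2 fold change was 0.23. With the local offset 3 were higher and 0 lower by edgeR, 6 and 1 at an unadjusted p under 0.05, and the median was 0.05, beside 7.42% and 8.04% of all genes called in that fit. EIF2S1, the alpha subunit that the kinases phosphorylate, was at 21.4, 12.2 and 16.5 FPKM in the Vector libraries and 36.5, 31.4 and 28.5 FPKM in the OE-MMP28 libraries. The groups did not overlap, and the log2 fold change was 0.95 (SE 0.18, adjusted p = 0.000755). The eIF2B subunit genes EIF2B5, EIF2B1 and EIF2B2 rose by 0.89, 0.69 and 0.67 on the log2 scale (adjusted p = 0.00041, 0.00379 and 0.00445, edgeR). Their neighbours had medians of 0.46, 0.32 and 0.62, and none of these 3 eIF2B genes was called once that median was taken off, while EIF2S1 was (0.59, adjusted p = 0.0286). A further subunit gene, EIF2B3, named after its value was seen, rose by 0.69 on the log2 scale (adjusted p = 0.00931, edgeR). The neighbours of EIF2B3 had a median of 0.06, and it kept its call with the offset (0.63, adjusted p = 0.0228). EIF2B4 was the gene of the list that fell, named here after its value was seen, by 0.54 on the log2 scale (adjusted p = 0.0222). It lost its call without Vector 1 (adjusted p = 0.0788) or OE-MMP28 2 (adjusted p = 0.086), and relative to its neighbours it had 0.04 (adjusted p = 0.899).

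Among 30 tested ATF4 targets outside the module, 8 fell (26.7%) and 1 rose (3.33%), beside 11.6% and 11.7% of all genes, and the median was -0.18. NDRG1, a stress- and hypoxia-responsive gene, had the largest fall of those named from this list, with 26.2, 53.3 and 37.8 FPKM in the Vector libraries and 11.3, 15.8 and 11.2 FPKM in the OE-MMP28 libraries. All OE-MMP28 libraries were below all Vector libraries, and the log2 fold change was -1.60 (SE 0.21, adjusted p = 1.89e-05). MAP1LC3B, the autophagosome protein LC3B, was at 18.2, 19.0 and 17.8 FPKM in the Vector libraries and 9.57, 7.82 and 8.18 FPKM in the OE-MMP28 libraries, with a log2 fold change of -1.10 (adjusted p = 3.16e-05). TNFRSF10B, the death receptor DR5, fell by 0.67 and VEGFA, the angiogenic growth factor, by 0.64 on the log2 scale (adjusted p = 0.00178 and 0.00532, edgeR). NDRG1, MAP1LC3B and VEGFA were also called lower in the fit with the local offset, and TNFRSF10B was not (-0.32, adjusted p = 0.127). Over the whole list 4 genes fell and 2 rose in that fit, beside 8.04% and 7.42% of all genes. Those that rose, PSAT1 (0.58, adjusted p = 0.0411) and DUSP4 (0.68, adjusted p = 0.00372), were named after their values were seen and were not called without the offset. Without OE-MMP28 2, 4 fell and 1 rose. In the main fit with all 6 libraries, the gene that rose was SLC33A1, named after its value was seen (0.58, adjusted p = 0.0308). It had 0.02 with the local offset (adjusted p = 0.947), and it lost its call without Vector 2, Vector 3, OE-MMP28 1 or OE-MMP28 3 (adjusted p = 0.0709, 0.104, 0.136 and 0.0702). Several of these genes answer to hypoxia and other stresses besides ATF4, and the list does not separate those inputs.

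Of 17 tested amino acid transporters outside the module, 3 were called higher (17.6%) and 2 lower (11.8%), beside 11.7% and 11.6% of all genes. Of these 5, SLC7A8 and SLC7A2 passed the filter on low counts through the OE-MMP28 libraries alone and SLC38A5 through the Vector libraries alone, so that the filter itself favoured a difference in them, and they are given by their counts with no test. SLC7A8, which encodes LAT2, the relative of LAT1, had 3, 15 and 8 counts in the Vector libraries and 68, 66 and 72 counts in the OE-MMP28 libraries. SLC7A7, the light chain of the y+L system, rose from 9.28 ± 0.761 to 16.2 ± 0.895 FPKM (mean ± SD, n = 3), or by 0.82 on the log2 scale, and lies on chromosome 14 among genes with a median of 0.59. With that median taken off SLC7A7 had 0.23 (adjusted p = 0.331) and was not called. SLC7A2, the cationic transporter CAT2, had 2 counts in each Vector library and 14, 18 and 13 in OE-MMP28. SLC38A5, a glutamine transporter, had 20, 19 and 21 counts in the Vector libraries and 7, 4 and 8 counts in the OE-MMP28 libraries. SLC43A2, named after its value was seen, was the other that was called lower (-0.80, adjusted p = 0.00881), also with the local offset (-0.91, adjusted p = 0.00569).

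Of 15 other cytosolic synthetases and scaffold genes, 14 had a positive log2 fold change, 3 rose (20%), 1 fell (6.67%), beside 11.7% and 11.6% of all genes, and the median was 0.24, beside 0.20 for the 9 members. VARS, the valyl-tRNA synthetase, was at 10.4, 7.14 and 8.88 FPKM in the Vector libraries and 14.2, 19.1 and 17.9 FPKM in the OE-MMP28 libraries, with a log2 fold change of 0.97 (SE 0.17, adjusted p = 0.000478). FARSA rose by 0.71 and TARS by 0.45, while DARS fell by 0.62 on the log2 scale (adjusted p = 0.00811, 0.0307 and 0.00489, edgeR). FARSA lost its call without OE-MMP28 3 (adjusted p = 0.0503), and TARS without Vector 2, Vector 3, OE-MMP28 1 or OE-MMP28 2 (adjusted p = 0.119, 0.0838, 0.0935 and 0.0879). Of 17 mitochondrial synthetases, 3 rose (17.6%), among them EARS2 by 0.86 and NARS2 by 0.84 on the log2 scale, and the median was 0.31. By edgeR, DESeq2 and limma voom 0 of them fell, and 1, CARS2 (-0.41), named after its value was seen, was lower at an unadjusted p under 0.05. VARS, FARSA and EARS2 were also called in the fit with the local offset. TARS (0.38, adjusted p = 0.084), NARS2 (0.48, adjusted p = 0.0557) and DARS (-0.21, adjusted p = 0.367) were not.

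Of 10 other bZIP factors of the stress response, CREB3L3, a membrane-bound factor of the liver and gut, rose by 0.88 and NFE2L2, the antioxidant factor NRF2, fell by 0.55 on the log2 scale (adjusted p = 0.00107 and 0.0105, edgeR). NFE2L2 lost its call without Vector 3 (adjusted p = 0.0587) or OE-MMP28 2 (adjusted p = 0.0671), and with the local offset it had -0.13 (adjusted p = 0.617). CREB3L3 was called with that offset too (0.74, adjusted p = 0.00584). In the ATF6 and IRE1 arm of the unfolded protein response, 3 of 20 genes rose (15%, beside 11.7% of all genes). They were SEL1L, which works in degradation from the endoplasmic reticulum (0.69), the chaperone HYOU1 (0.56) and the translocon subunit SEC61B (0.52), and none of these 3 was called with the local offset or without OE-MMP28 2 (adjusted p = 0.0753, 0.168 and 0.145 without it). With the offset SEL1L had -0.04 and HYOU1 0.10, whereas SEC61B had 0.49, close to its value without the offset (adjusted p = 0.916, 0.748 and 0.0703). HYOU1 and SEC61B were not called either without Vector 2 (adjusted p = 0.0626 and 0.156) or Vector 3 (0.0884 and 0.104), nor SEC61B without OE-MMP28 3 (0.153). By edgeR, DESeq2 and limma voom 0 genes of this list fell, also at an unadjusted p under 0.05. Of all genes, 11.6% were called lower in edgeR.

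In amino acid sensing and mTORC1, 2 of 23 genes rose and 3 fell, together 21.7%, beside 23.4% of all genes. They included EIF4EBP2, a repressor of translation (-0.76), LAMTOR1, the lysosomal anchor of mTORC1 (0.71), the Rag GTPase gene RRAGD (-0.81) and CASTOR2, of the arginine sensor family (-1.02). RRAGD lost its call without Vector 3, OE-MMP28 2 or OE-MMP28 3 (adjusted p = 0.109, 0.0681 and 0.0919), and CASTOR2 without Vector 3 or any OE-MMP28 library (adjusted p between 0.0561 and 0.0676). With the local offset RRAGD was called (-0.97, adjusted p = 0.0128), and EIF4EBP2 (-0.34, adjusted p = 0.137), LAMTOR1 (0.29, adjusted p = 0.231) and CASTOR2 (-0.88, adjusted p = 0.066) were not. With the local offset 0 genes of the list were higher and 1 lower by edgeR, 1 and 4 at an unadjusted p under 0.05. EIF4E, the cap-binding protein, named after its value was seen, was the other gene that rose (0.58, adjusted p = 0.0308). It was not called with the offset (0.43, adjusted p = 0.13), nor without Vector 2, Vector 3, OE-MMP28 1 or OE-MMP28 2 (adjusted p = 0.136, 0.0721, 0.132 and 0.0775).

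**Figure D4:**
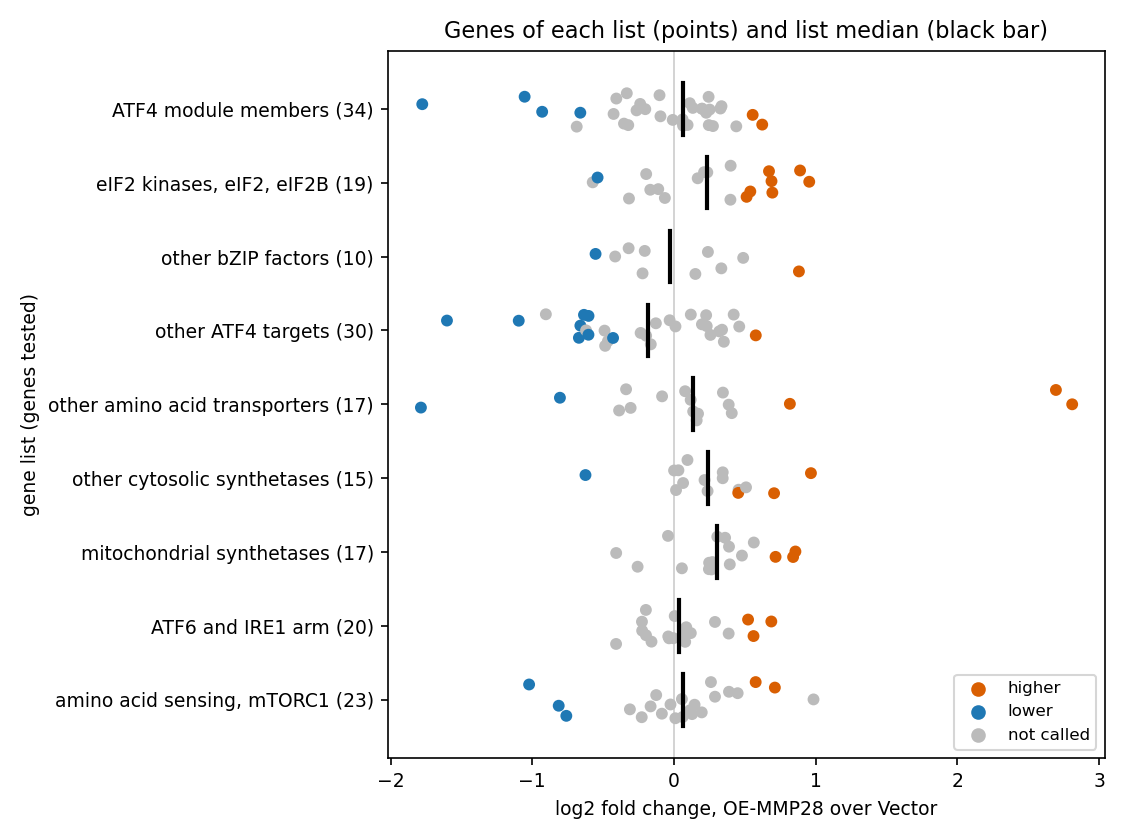
Log2 fold change (OE-MMP28 over Vector) of every gene tested in the module and in the 8 other lists (points), with the median of each list as a black bar; orange points rose and blue points fell at an adjusted p under 0.05. The medians ran from -0.18 for the other ATF4 targets to 0.31 for the mitochondrial synthetases, and that of the module was 0.06.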

How the data were processed

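RNA of 6 AsPC-1 libraries was prepared with the NEBNext Ultra RNA kit, which does not mark strand, and sequenced. Per the submitters' processing notes, reads were aligned with HISAT2 2.0.5 and counted per gene with featureCounts 1.5.0-p3, and their settings, the strand setting and the build are not given in the sources used here. The authors deposited raw read counts per gene and library, and FPKM values (fragments scaled to gene length and library total). The file's coordinates equalled GENCODE 29 (GRCh38) for all 58735 rows. Every per-sample column was mapped (0 left over). The deposited columns of the authors' own comparison (means, fold changes, p-values) were not used.

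Genes were tested with edgeR 4.0.16 (R 4.3.3, quasi-likelihood, TMM, group only), after filterByExpr (minimum count 10, minimum total 15), with Benjamini-Hochberg adjustment over all 15319 genes. limma 3.58.1, which the study's methods name, was run as an alternative. Levels are the deposited FPKM. The local median is that of the genes tested within 5 Mb on either side of a gene, at least 5 of them and without the gene itself. Scripts were tested on simulated data with 200 changed genes. The members and lists were chosen with earlier results of these data known. All members were named, and of each other list at most the 4 called genes with the smallest p, plus the 4 eIF2alpha kinases, except a gene that is not reported here. Replicates were compared by chi-square and none agreed within sampling noise. The 18 alternatives were leaving out each library, the replicate number as a block, other scalings and filters, limma voom, DESeq2 1.42.0, log2(FPKM + 1) and log2(FPKM + 0.1) in limma, the counts without mitochondrial genes, the local offset, and protein-coding genes only.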

Additional observations from a re-analysis of the deposited data

How the results depend on the processing

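CHAC1, TRIB3 and KLHL24 were called lower under all 18 alternatives and DDIT4 under 17 of them. PCK2 and WARS were called higher under 15 of 18. The number of members called higher was 0 with the local-median offset and ran from 0 to 5 when 1 library was left out, and the number called lower stayed between 4 and 5 under every alternative run. Over all genes, 1009 were called higher and 965 lower by limma on log2(FPKM + 1), and 1000 and 970 on log2(FPKM + 0.1), compared with 1795 and 1784 in edgeR. The local offset gave 1136 higher. Leaving out 1 library gave 985 to 1916 higher and 1044 to 1949 lower, with the lowest of both without OE-MMP28 2. Without Vector 3, 1136 were higher. The other genes of the pathway gave 12 higher and 10 lower with either limma fit on FPKM, and 14 higher and 7 lower with the local offset, and 16 to 27 higher and 8 to 18 lower when 1 library was left out, with 8 without OE-MMP28 2 and 10 without OE-MMP28 3. Why these counts moved was not tested, but the offset removes by construction what a gene shares with its neighbours.

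The sign turned, with no call on either side for the members, with the local offset for AARS (0.29), ALDH18A1 (0.0348), SESN2 (0.0075), SLC3A2 (-0.12), SLC1A5 (-0.0368), IARS (-0.013), XPOT (-0.0919) and EIF2AK2 (0.0301), and for SEL1L (-0.0375), which was called higher without it, and EIF2B4 (0.042), which was called lower without it. Leaving out 1 library turned the sign of small values, with ranges of -0.18 to 0.14 for SESN2, -0.0502 to 0.15 for CEBPB, -0.0602 to 0.17 for SLC1A5, -0.20 to 0.0634 for AARS, -0.21 to 0.0604 for SARS, -0.0382 to 0.19 for IARS, -0.0453 to 0.25 for XPOT, -0.0152 to 0.52 for GDF15 and -0.0306 to 0.29 for PYCR1.

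The replicate numbers are shared by the groups, but no source ties equal numbers to a shared culture or day, and same-numbered libraries did not deviate together (r across genes 0.0169, 0.0077 and -0.0873). With the replicate number as a block, 2 members were called higher and 4 lower, the counts without the block, and 1844 and 1841 of all genes. Of the genes named, EIF2AK3 alone changed its call with the block (-0.59, adjusted p = 0.047). Depth limits the scarce members, ASNS, CHAC1, JDP2, SLC1A4, SLC6A9 and GDF15, whose counts were at most 117 in each library. NUPR1, VLDLR, STC2 and FGF21 could not be tested.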
